A study of Bos taurus with 6 samples.

Results

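Expression of 10 genes that are imprinted in mammals, PHLDA2, CDKN1C, PEG3, IGF2, IGF2R, GRB10, MEST, PLAGL1, DLK1 and NNAT, was compared between bovine embryos that degenerated after compaction and blastocysts. The members were taken as every probe set (a group of short probes that together measure 1 transcript) annotated to one of these symbols, which gave 25 probe sets of the 24036 in the table, and 10 genes of the 9155 that the annotation names. The genes were chosen by their role in imprinting and with measured values of these arrays already known, in particular the difference of PHLDA2 between the groups. Their differences are therefore given as a description, with no p-value, and the calls that fits over the whole array made among them are counted without being read as evidence. Late degenerative embryos and blastocysts both came from in vitro fertilization of oocytes from slaughterhouse ovaries, and both were taken from embryos that were compacted morulae at day 5 and were collected at day 8. The degenerative embryos had not completed the step from morula to blastocyst, whereas blastocysts had a distinct inner cell mass and a cavity. Each group had 3 pools (A, B and C) of 20 embryos, and 1 pool was measured on 1 Affymetrix Bovine Genome Array. The labels give no treatment and no engineered allele for either group. A pool held embryos of several cows and bulls, and the array reads the sum of both parental copies of a gene, so neither genotype nor the parental origin of a transcript was measured.

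Imprinted genes are expressed mainly from the copy inherited from 1 parent, because DNA methylation set in the egg or the sperm marks the copies differently. Many of them act on growth before birth and on the placenta, and in mouse several paternally expressed members promote growth whereas several maternally expressed members limit it. PHLDA2 and CDKN1C, both maternally expressed, lie close together in a domain that in mouse and human is controlled by a methylated region within KCNQ1. The domain of IGF2 lies beside it.

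Values are log2 expression levels after GCRMA, a procedure that corrects background from probe sequence and brings the arrays to a common distribution. The lowest level on this scale was 2.12, and it was the reading of 27.4 to 28.6% of probe sets, depending on the array. Of all probe sets, 18937 took more than 1 value over the arrays and were tested. Degenerative pool A stood apart: 29.7% of its probe sets lay more than 1 log2 unit from the mean of the other pools of its group, against 13.3% and 15.4% in degenerative pools B and C and 4.28 to 13.2% in the blastocyst pools. The signal of the 3' probe set of GAPDH exceeded that of its 5' probe set by 2.48 to 2.52 log2 units in degenerative pools and by 1.83 to 2.89 log2 units in blastocyst pools. The 3' control probe set of actin read 4.48, 7.14 and 5.27 in degenerative pools A, B and C, against 7.56, 8.84 and 8.11 in blastocyst pools A, B and C, so every degenerative pool was lower, and its part in the results that follow was not tested. In such pools, fewer cells of a type and less RNA per cell cannot be told apart.

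Among the members, 8 probe sets had a single value on all arrays and 17 were tested. Only 7 of these, from PHLDA2, CDKN1C, PEG3, IGF2R and MEST, reached a level of 5 on at least 3 arrays. The other 10 tested probe sets stayed under 5 on every array, and all 10 differed by less than 0.5 log2 units between the groups. IGF2, GRB10, PLAGL1, DLK1 and NNAT had no probe set at 5 on any array.

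**Figure D1:**
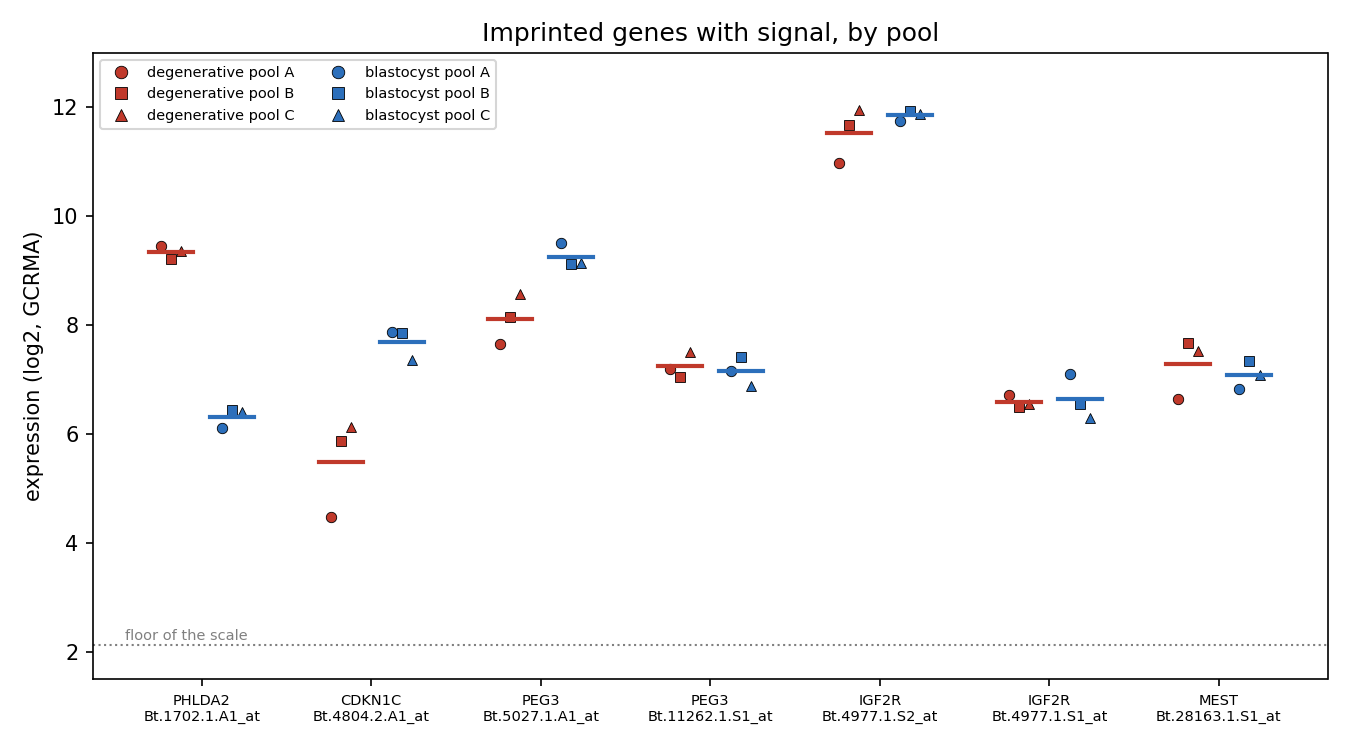
Expression (y axis, log2 after GCRMA) of the 7 probe sets of imprinted genes that reached 5 on at least 3 arrays. Points are pools, with degenerative pools in red to the left of blastocyst pools in blue, horizontal bars are means of 3 pools, and the dotted line is the lowest level of the scale; the PHLDA2 probe set was higher in every degenerative pool, and those of CDKN1C and of PEG3 at the left of its pair were lower in every degenerative pool.

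PHLDA2, a small cytosolic protein with a pleckstrin homology domain that limits placental growth in mouse, had the largest difference of the members. Its 1 probe set had log2 levels of 9.46, 9.22 and 9.36 in degenerative pools A, B and C, against 6.10, 6.44 and 6.40 in blastocyst pools A, B and C. The groups lay far apart, and the pools of each group lay close together. The mean was 9.35 ± 0.12 in degenerative embryos and 6.31 ± 0.18 in blastocysts (SD, n = 3 each), a difference of 3.03 log2 units (SE 0.12), or 8.18-fold higher in degenerative embryos. Among all probe sets tested, it had the 24th largest difference upward.

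CDKN1C encodes p57, an inhibitor of cyclin-dependent kinases that halts the cell cycle and is needed for the growth control of fetus and placenta. Of its 3 probe sets, 1 carried signal and differed in the other direction, with log2 levels of 4.48, 5.87 and 6.13 in degenerative pools A, B and C, against 7.87, 7.86 and 7.36 in blastocyst pools A, B and C. Every degenerative pool was below every blastocyst pool, and degenerative pool A was the lowest. The mean was 5.49 ± 0.88 in degenerative embryos and 7.70 ± 0.29 in blastocysts (SD, n = 3 each), a difference of -2.20 log2 units (SE 0.50), or 4.60-fold lower in degenerative embryos. Without degenerative pool A the difference was -1.70. Of the other CDKN1C probe sets, one read 2.19 on every array, and the other read 2.12 on every array except blastocyst pool C, at 2.13. The value for CDKN1C thus rests on 1 probe set.

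PEG3, a paternally expressed zinc finger transcription factor, had 5 probe sets that did not give the same picture. One had log2 levels of 7.65, 8.15 and 8.56 in degenerative pools A, B and C, against 9.51, 9.13 and 9.14 in blastocyst pools A, B and C. All degenerative pools were below all blastocyst pools, with means of 8.12 ± 0.46 in degenerative embryos and 9.26 ± 0.22 in blastocysts (SD, n = 3 each) and a difference of -1.14 (SE 0.27), or 2.20-fold lower. Another had levels of 7.20, 7.05 and 7.50 in degenerative pools A, B and C, against 7.16, 7.41 and 6.88 in blastocyst pools A, B and C. Here the groups overlapped, and the difference was 0.10 (SE 0.19). One more was near the lowest level, at 2.23 to 2.41 in degenerative pools and 2.27 to 2.54 in blastocyst pools, and the remaining PEG3 probe sets read 2.12 on every array. Which part of the transcript each probe set reads was not analysed here.

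IGF2 is a growth factor ligand, and IGF2R is the receptor that carries it to the lysosome for breakdown. One IGF2R probe set was bright, with log2 levels of 10.98, 11.68 and 11.95 in degenerative pools A, B and C, against 11.76, 11.93 and 11.89 in blastocyst pools A, B and C. The groups overlapped, and the low value was that of degenerative pool A. The difference was -0.32 (SE 0.27), and -0.04 without degenerative pool A. The other IGF2R probe set had levels of 6.73, 6.51 and 6.55 in degenerative pools A, B and C, against 7.10, 6.55 and 6.30 in blastocyst pools A, B and C, with a difference of -0.06 (SE 0.23). IGF2 itself was dim with all 4 of its probe sets: the brightest reading was 2.94, in degenerative pool B, and the same probe set read 2.72 on every other array. A second one read 2.29 in degenerative pool B and 2.12 on the other arrays, and the remaining IGF2 probe sets had a single value on all arrays.

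MEST, a paternally expressed protein of the alpha/beta hydrolase fold, was measured by 1 of its 4 probe sets at 6.65, 7.67 and 7.53 in degenerative pools A, B and C, against 6.82, 7.33 and 7.08 in blastocyst pools A, B and C. The groups overlapped, with a mean of 7.28 ± 0.55 in degenerative embryos and 7.08 ± 0.26 in blastocysts (SD, n = 3 each) and a difference of 0.20 (SE 0.33). Its size depended on the degenerative pools: it was 0.52 without pool A and 0.01 without pool B. The 3 other MEST probe sets were dim, with differences of 0.37 (SE 0.65), 0.33 (SE 0.30) and 0.01 (SE 0.04).

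The remaining genes were dim in both groups. PLAGL1, a zinc finger transcription factor, read 2.50 to 3.07 in degenerative pools and 2.12 to 2.50 in blastocyst pools, with a difference of 0.35 (SE 0.21). DLK1, a transmembrane protein related to Notch ligands, read 2.52 to 3.96 in degenerative pools and 2.77 to 3.49 in blastocyst pools on 1 of its 2 probe sets, with a difference of 0.07 (SE 0.43). Of 2 probe sets for NNAT, a small membrane proteolipid, 1 had a single value and the other read 2.12 to 3.09 in degenerative pools and 2.44 to 2.64 in blastocyst pools. The DLK1 and NNAT groups overlapped, and those of PLAGL1 met at 2.50. GRB10, an adaptor that inhibits signaling of the insulin receptor, read 2.12 on every array with its 1 probe set. A reading at the floor gives only an upper limit of the signal and does not show that a transcript is absent.

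Over the tested members, limma (adjusted p of at most 0.15 over all probe sets tested) called 1 of 17 higher in degenerative embryos and 0 lower, and the called probe set was that of PHLDA2. The same call rule took 0.0211% of all probe sets, 4 of 18937. SAM, the method of the study, at a false discovery rate of 15% called the same member and 0.354% of all probe sets. With the letter of the pool as a block, limma called no probe set of the array, and the PHLDA2 difference of 3.03 then had an SE of 0.15. The limma call was also lost without degenerative pool B (3.10), without blastocyst pool B (3.09) or without blastocyst pool C (3.08). Groups did not overlap for 3 of 17 member probe sets, 1 higher and 2 lower in degenerative embryos, against 15.4% of all probe sets. The same 3 differed by 2-fold or more, which held for 10.9% of all probe sets. The median difference over the 17 was 0.06, and that over all probe sets tested was 0.00. Since the choice of members used this contrast, these shares are given without any reading.

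**Figure D2:**
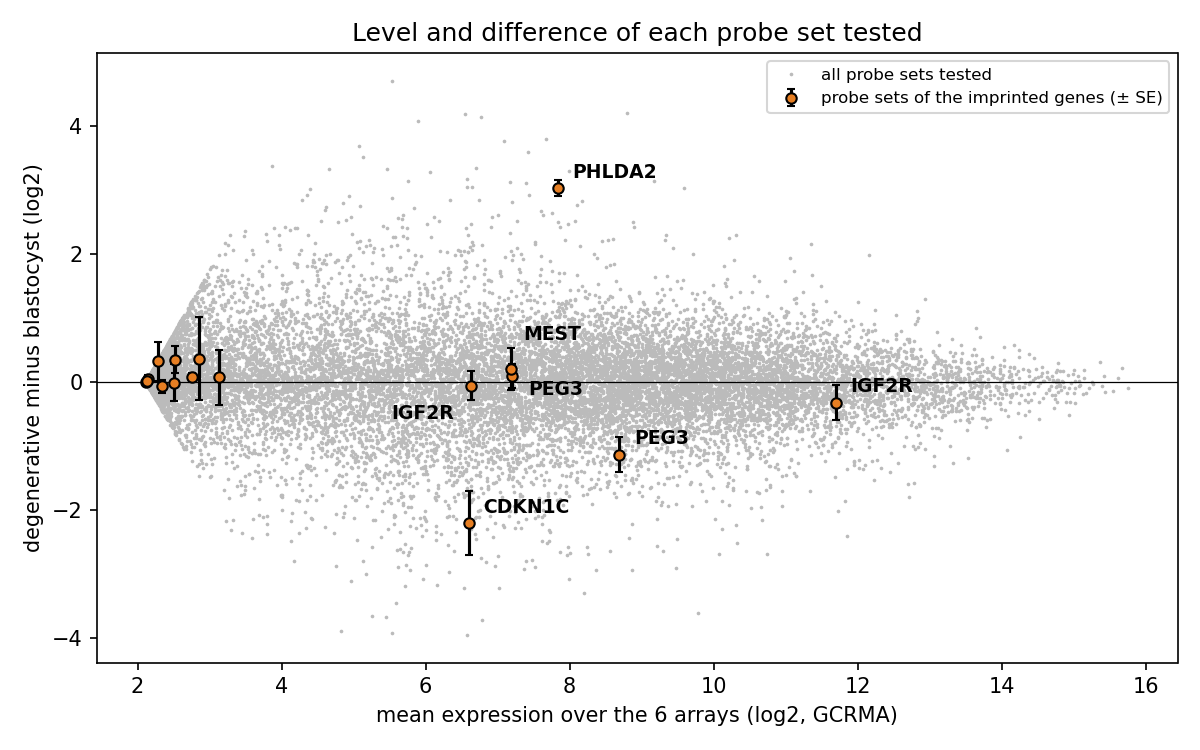
Mean expression over the 6 arrays (x axis, log2 after GCRMA) and difference between the groups (y axis, log2, degenerative minus blastocyst) of all 18937 probe sets tested, as gray points, and of the 17 tested probe sets of the imprinted genes, as orange points with SE. PHLDA2 lies at 3.03, CDKN1C at -2.20 and the lower PEG3 point at -1.14, and the dim members gather near 0 at the left.

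The genes around PHLDA2 were not chosen on values and allow a comparison with the measured genes of its chromosome segment. PHLDA2 and CDKN1C lie on chromosome 29, with only SLC22A18 between them in the RefSeq gene order used here. The 10 measured genes before and the 10 after PHLDA2 held 23 probe sets of 18 genes that are no members. Their span holds 82 genes in that order, of which 21, PHLDA2 included, had a tested probe set. NAP1L4, OSBPL5 and H19 had no annotated probe set. None was called by limma or by SAM, which called 0.0211% and 0.354% of all probe sets. Of the 23, 2 had an unadjusted p under 0.05 (8.61% of all probe sets did), and the median difference was 0.03. In degenerative embryos 14 were higher and 9 lower, and groups did not overlap for 1 higher and 1 lower, against 15.4% of all probe sets. Whether the difference of PHLDA2 departs from those of its neighbours was not tested.

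CARS1, a cysteinyl-tRNA synthetase, was the nearest measured gene before PHLDA2. It read 9.05, 6.95 and 6.49 in degenerative pools A, B and C, against 7.39, 6.90 and 6.28 in blastocyst pools A, B and C, a difference of 0.64 (SE 0.78, limma adjusted p 0.774) that was set by degenerative pool A and was -0.14 without it. NADSYN1, which makes NAD from its last precursor, differed by -0.73 (SE 0.74, limma adjusted p 0.739). After CDKN1C came KCNQ1, a potassium channel, which read 2.12 to 2.20 in degenerative pools and 2.12 to 2.13 in blastocyst pools. TSSC4, imprinted in mouse, read 7.77, 6.84 and 6.32 in degenerative pools A, B and C, against 5.99 to 6.32 in the blastocyst pools, a difference of 0.87 (SE 0.41, limma adjusted p 0.625) that was 0.47 without degenerative pool A. DHCR7, the last enzyme of cholesterol synthesis, had the largest difference of the neighbours that are no members, at -1.51 (SE 0.31, limma adjusted p 0.457), with 9.59, 10.46 and 9.87 in degenerative pools A, B and C, against 11.91, 11.21 and 11.32 in blastocyst pools A, B and C. ASCL2, a trophoblast transcription factor in mouse, read 4.04, 4.20 and 4.34 in degenerative pools A, B and C, against 5.42, 5.27 and 4.34 in blastocyst pools A, B and C, a difference of -0.82 (SE 0.32, limma adjusted p 0.593).

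**Figure D3:**
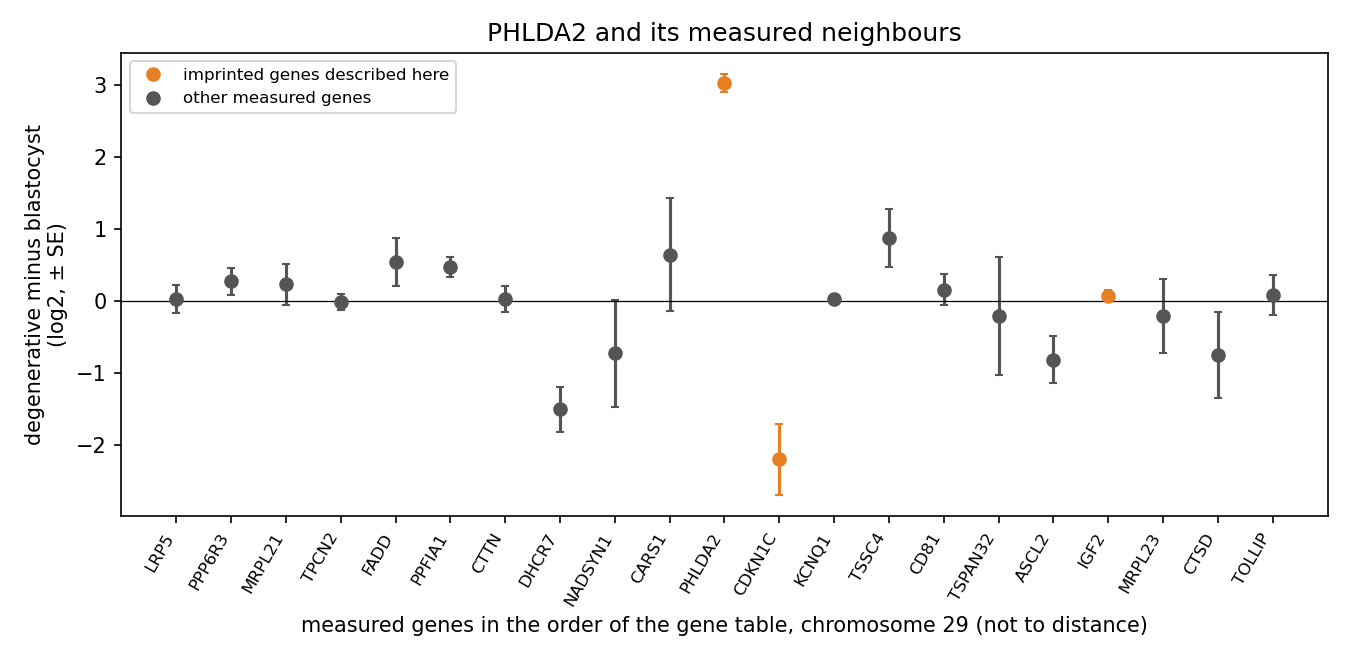
Difference between the groups (y axis, log2, degenerative minus blastocyst, with SE) of PHLDA2 and of the 10 measured genes on either side of it, in gene table order along chromosome 29 (x axis, not to distance), with 1 probe set shown for each gene. The orange points are PHLDA2 at 3.03, CDKN1C at -2.20 and IGF2 at 0.07, and the gray points of the other genes run between -1.51 (DHCR7) and 0.87 (TSSC4).

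The other imprinted genes were taken as 2 lists, of 23 maternally and 24 paternally expressed genes, of which 19 genes with 29 probe sets were tested. Limma and SAM called 0 of the 29, 4 had an unadjusted p under 0.05 (8.61% of all probe sets did), and groups did not overlap for 1 higher and 7 lower in degenerative embryos, which is 27.6% of the 29 against 15.4% of all probe sets. The single gene MEG3 gave 4 of the 7 lower and 3 of the 4 with an unadjusted p under 0.05. The median difference over the 29 was 0.02. For 12 tested maternally expressed genes 6 were higher and 6 lower, with a median of -0.04, and for 7 tested paternally expressed genes 5 were higher and 2 lower, with a median of 0.40. Only 1 probe set was called after leaving out a pool: without degenerative pool A, a dim GNAS probe set (0.60, limma adjusted p 0.102).

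MEG3, a maternally expressed noncoding RNA that follows DLK1 on chromosome 21 in the gene order used here, was lower in degenerative embryos with all 5 of its probe sets, and without overlap of the groups with 4. One probe set read 5.54, 6.50 and 6.52 in degenerative pools A, B and C, against 9.10, 7.70 and 8.32 in blastocyst pools A, B and C, a difference of -2.19 (SE 0.48, limma adjusted p 0.47). Another read 4.86, 5.68 and 7.19 in degenerative pools A, B and C, against 9.24, 8.10 and 9.13 in blastocyst pools A, B and C, a difference of -2.91 (SE 0.71, limma adjusted p 0.487). The other MEG3 probe sets differed by -2.12 (SE 0.75, limma adjusted p 0.566), -1.25 (SE 0.48, limma adjusted p 0.586) and -0.31 (SE 0.22, limma adjusted p 0.728). None of the MEG3 probe sets passed the threshold, and probe sets of 1 gene are not replicates. DLK1, which is expressed from the paternal copy of the same domain in mammals, was dim on both of its probe sets.

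**Figure D4:**
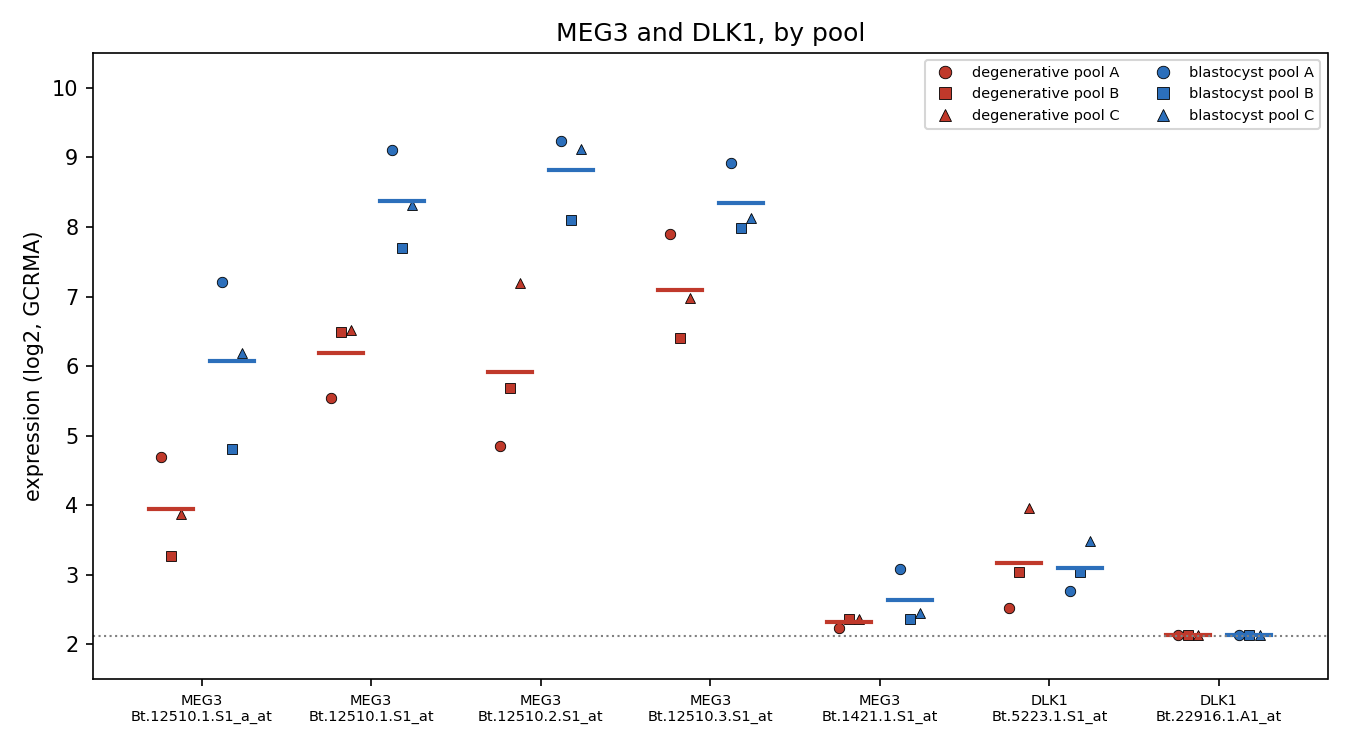
Expression (y axis, log2 after GCRMA) of the 5 probe sets of MEG3 and the 2 of DLK1 (x axis). Points are pools, with degenerative pools in red to the left of blastocyst pools in blue, bars are means of 3 pools, and the dotted line is the lowest level of the scale; 4 MEG3 probe sets were lower in every degenerative pool, and DLK1 stayed under 4 in all pools.

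DHCR7, given above with the neighbours of PHLDA2, had the smallest limma p of the list of maternally expressed genes. It was counted in both sets, as were KCNQ1, TSSC4 and ASCL2. NAP1L5, a nucleosome assembly protein homologue, read 4.77, 6.84 and 6.16 in degenerative pools A, B and C, against 8.20, 7.89 and 6.87 in blastocyst pools A, B and C, a difference of -1.73 (SE 0.67, limma adjusted p 0.587). NDN, a growth suppressor of the MAGE family, read 11.21, 11.20 and 11.06 in degenerative pools A, B and C, against 9.56, 10.68 and 10.83 in blastocyst pools A, B and C, a difference of 0.80 (SE 0.37, limma adjusted p 0.626) that was 0.40 without blastocyst pool A. MKRN3, a ring finger protein, differed by 0.48 (SE 0.21, limma adjusted p 0.612).

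The partners of IGF2 and IGF2R were read from a list of 22 genes of the insulin-like growth factor pathway, of which 17 genes with 28 probe sets were tested. None was called by limma or SAM, and 3 had an unadjusted p under 0.05 (8.61% of all probe sets did). In degenerative embryos 20 probe sets were higher and 8 lower. IGF2BP3, an RNA-binding protein that binds IGF2 transcripts, had the smallest p, with 10.08, 10.09 and 10.15 in degenerative pools A, B and C, against 11.37, 11.03 and 10.69 in blastocyst pools A, B and C, a difference of -0.92 (SE 0.18, limma adjusted p 0.451). Its second probe set differed by -0.95 (SE 0.23, limma adjusted p 0.483). AKT2, a kinase downstream of insulin signaling, differed by 0.86 (SE 0.19, limma adjusted p 0.479) on 1 probe set and by -0.54 (SE 0.82, limma adjusted p 0.823) on the other. Of a list of CDK inhibitors and relatives of PHLDA2, 2 genes were tested, both CDK inhibitors. Neither was called by limma or SAM, with 0 at an unadjusted p under 0.05. No probe set was assigned to PHLDA1, PHLDA3 or CDKN1B, so no relative of PHLDA2 was tested. CDKN1A, the inhibitor p21, read 8.08, 10.45 and 9.72 in degenerative pools A, B and C, against 8.26, 8.37 and 8.95 in blastocyst pools A, B and C, a difference of 0.89 (SE 0.68, limma adjusted p 0.737), and CDKN2C differed by 0.27 (SE 0.22, limma adjusted p 0.737). Leaving out degenerative pool A gave 1.56 for CDKN1A, and leaving out degenerative pool B gave 0.37 for CDKN1A and 0.04 for CDKN2C.

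Among markers of cell types that such pools could hold, none was called by limma or SAM. The summed levels of the trophectoderm, inner cell mass and maternal oocyte lists did not overlap between the groups, whereas those of the cumulus and granulosa list met at 11.06. Such separation was not particular to cell type lists. The insulin-like growth factor list summed to 13.87 to 14.29 in degenerative and 13.62 to 13.74 in blastocyst pools. The other paternally expressed imprinted genes summed to 11.63 to 11.87 in degenerative and 11.39 to 11.57 in blastocyst pools. The brightest genes weigh most in a sum. KRT18, the brightest trophectoderm gene, read 15.17 to 15.52 in degenerative and 15.26 to 15.65 in blastocyst pools. OOEP, the brightest oocyte gene, read 7.57 to 8.51 in degenerative and 6.73 to 7.57 in blastocyst pools, so its groups met at 7.57. Of 10 tested trophectoderm genes (the outer layer that forms the placenta), 8 were lower and 2 higher in degenerative embryos, with 3 of 12 probe sets at an unadjusted p under 0.05, and the log2 of their summed level was 16.00 to 16.28 in degenerative pools and 16.42 to 16.84 in blastocyst pools. TFAP2A, a trophectoderm transcription factor, read 4.78, 6.98 and 6.47 in degenerative pools A, B and C, against 9.26, 8.96 and 8.70 in blastocyst pools A, B and C, a difference of -2.90 (SE 0.63, limma adjusted p 0.47). PAG2, a pregnancy-associated glycoprotein of the trophoblast, differed by -2.41 (SE 0.85, limma adjusted p 0.566), and by -1.49 without degenerative pool A. Other genes of this list differed little or upward: KRT18 by -0.06, KRT8 by -0.04, TEAD4 by 0.02 and SLC2A1 by 0.43. Of 8 listed inner cell mass genes, only POU5F1, SOX2 and KLF4 were tested. All 3 were higher in degenerative embryos, with a log2 summed level of 14.18 to 14.98 in degenerative pools and 13.93 to 14.06 in blastocyst pools. Without degenerative pool A, the difference went from 0.48 to 0.31 for POU5F1, from 1.03 to 0.69 for SOX2 and from 0.51 to 0.26 for KLF4. The 8 tested hypoblast genes (5 higher, 3 lower) had a summed level of 15.36 to 16.10 in degenerative pools and 15.44 to 15.59 in blastocyst pools. Of maternal oocyte transcripts, 7 of 7 tested genes had a higher mean in degenerative embryos, although 3 stayed under 5 on every array and MOS differed by only 0.01, with a summed level of 7.99 to 8.71 in degenerative pools and 7.15 to 7.87 in blastocyst pools, whereas GDF9 and BMP15, made by the oocyte, had a single value on all arrays. ZP4, a protein of the egg coat, differed by 0.91 (SE 0.42, limma adjusted p 0.625) and was called by limma without degenerative pool A (1.36, limma adjusted p 0.102). ZP4 was dim, at 2.12, 3.56 and 3.41 in degenerative pools A, B and C, against 2.12 in every blastocyst pool. Without degenerative pool A, the difference fell from 1.56 to 1.06 for KPNA7 and fell to 0.50 for ZP2. For OOEP it rose from 0.76 to 0.83. The remaining oocyte genes were not followed across settings. Of 10 tested cumulus and granulosa genes, 6 were higher and 4 lower in degenerative embryos, and their summed level was 11.06 to 12.01 in degenerative pools and 10.54 to 11.06 in blastocyst pools, with AMH and FOXL2 at a single value. An unadjusted p under 0.05 was reached by 1 oocyte probe set and by 0 of the inner cell mass, hypoblast or cumulus and granulosa probe sets. Of all probe sets tested, 8.61% reached it. No probe set was assigned to the listed trophectoderm markers CDX2, GATA2, GATA3 and TFAP2C, so they could not be read here. The part of these marker differences in the values of PHLDA2, CDKN1C, PEG3 and MEG3 was not tested.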

How the data were processed

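RNA of 6 embryo pools (3 late degenerative, 3 blastocyst) was amplified linearly and hybridised to Affymetrix Bovine Genome Arrays. The deposited values are log2 expression levels per probe set, made by the authors with GCRMA, which the submitters' processing notes give as version 2.14.1 and which sets a common floor and makes the distributions of the arrays alike. Arrays have no read depth; the number of pools limits the precision. Symbols came from GEO's platform annotation, updated through RefSeq (ARS-UCD2.0, used for names, chromosomes and gene order only), and 11002 of 18937 tested probe sets had 1 symbol, 64 several and 7871 none.

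Of 24036 probe sets, 20 controls were removed, as were 5079 that did not vary over the arrays. The groups were compared with limma 3.58.1 in R 4.3.3 (lmFit, eBayes, Benjamini-Hochberg adjustment over all probe sets tested, call at 0.15), tested first on simulated data. SAM was written from its description and ran over all 20 relabelings. The members and all lists were chosen with earlier results of these data known. Same-lettered pools deviated together from their group means (r of 0.37 for A, 0.18 for B and 0.27 for C). No label says what a letter shares, and correlations between differently lettered pools are not given, so pairing is not established. The letter was therefore used as a block in an alternative fit. SEs and p-values come from the fit without the letter unless the block is named. P-values set a difference against the spread between pools, which limma estimates with help from all probe sets. They do not reflect the spread between embryos of a pool. Differences are degenerative minus blastocyst. Summed marker levels are the log2 of the sum of linear levels, 1 probe set a gene. Named were every member probe set, up to 4 genes of a list with the smallest limma p, the 2 nearest measured genes on either side of PHLDA2, and the 5 genes whose profile was most like that of PHLDA2; other genes were named after their values were seen. Alternatives were SAM, median centring, a filter on dim probe sets, single values kept, a trend in the spread, array weights, the letter as a block, and leaving out each pool.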

Additional observations from a re-analysis of the deposited data

How the results depend on the processing

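Limma called 4 probe sets of the whole array, SAM 67, limma with array weights 57, with single values kept 2, with each array centred 1, with only probe sets at 5 or more on 3 arrays 1, and with a spread trend or the letter as a replicate block 0; the count ran from 1 to 42 when 1 pool was left out (42 without degenerative pool A, 14 without degenerative pool C). At an unadjusted p under 0.05 there were 1631 probe sets, and 1789 with the block. The 1 member called, PHLDA2, was lost (0 called) with the trend, with the block, and without degenerative pool B, blastocyst pool B or blastocyst pool C, giving a range of 0 to 1; its difference stayed between 2.88 and 3.10. Member probe sets without overlap numbered 3, 4 with each array centred, and 3 to 5 when a pool was left out. Without degenerative pool A, PLAGL1 and the bright MEST probe set joined, and without degenerative pool B, a dim NNAT probe set. Without degenerative pool C, a dim PEG3 probe set and IGF2R joined, and without blastocyst pool C, PLAGL1 and a dim MEST probe set. With a pool fewer, groups separate more easily, and the share of all probe sets in these settings is not given here. Overlap with the block was not computed. Other imprinted probe sets called ranged from 0 to 1. The block also removed the 3 calls that are no members, so it left no call on the array. Over the settings, 7 of 17 member probe sets changed sign at least once, as did 7 of 63 others followed across them. The others were up to 4 genes a list with the smallest limma p, the nearest neighbours and the genes most like PHLDA2. Choosing by p or by likeness to PHLDA2 favours a stable sign, whereas the members include every dim probe set tested. The shares therefore cannot be compared. Dim probe sets near the floor understate differences.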

Other observations

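Genes that keep or write imprints were read from a list of 16, of which 9 genes with 12 probe sets were tested. None was called by limma or SAM, and the unadjusted p was under 0.05 for 2 probe sets (8.61% of all probe sets). In degenerative embryos 7 genes were higher and 2 lower. DNMT3A, which sets new methylation, read 11.45, 11.91 and 11.47 in degenerative pools A, B and C, against 12.53, 12.43 and 12.17 in blastocyst pools A, B and C, a difference of -0.77 (SE 0.18, limma adjusted p 0.479). UHRF1, which brings DNMT1 to replicated DNA, read, on the probe set with the smaller p, 10.20, 8.08 and 7.56 in degenerative pools A, B and C, against 6.70, 6.49 and 6.10 in blastocyst pools A, B and C, a difference of 2.18 (SE 0.76, limma adjusted p 0.563) that was 1.39 without degenerative pool A. SETDB1, a histone methyltransferase, differed by 1.32 (SE 0.63, limma adjusted p 0.628), and by 0.68 without degenerative pool A.

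Of a list that joins PCNA to the cyclins and kinases that CDK inhibitors hold, 9 genes with 10 probe sets were tested. None was called by limma or SAM, and 1 had an unadjusted p under 0.05 (8.61% of all probe sets did). It was that of PCNA, the sliding clamp of DNA replication, with a difference of -0.21 (SE 0.07, limma adjusted p 0.563). CCNE1, which drives entry into S phase, differed by 0.84 (SE 0.46, limma adjusted p 0.657), CCNA2 by 0.52 and CCND3 by 0.47. Without degenerative pool A these differences were 0.36, 0.20 and 0.24.

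The 5 genes whose profile over the 6 arrays was nearest to that of PHLDA2, by mean absolute difference of centred levels among 4794 candidates, were ARRDC2 (0.27 log2 units), TDH (0.35), ETNPPL (0.37), TMEM37 (0.50) and CLIP3 (0.51). All 5 were higher in every degenerative pool than in any blastocyst pool, which the choice itself favours, with differences of 3.27, 2.72, 2.64, 2.16 and 2.56, and none was called by limma or SAM. With array weights limma called ARRDC2 (2.94, limma adjusted p 0.118), and without blastocyst pool C it called ETNPPL (3.13, limma adjusted p 0.15). ARRDC2 read 8.01, 7.68 and 7.38 in degenerative pools A, B and C, against 3.91, 4.89 and 4.44 in blastocyst pools A, B and C. ETNPPL read 9.10, 9.02 and 9.08 in degenerative pools A, B and C, against 6.04, 5.83 and 7.40 in blastocyst pools A, B and C.

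Sperm markers had a log2 summed level of 5.25 to 6.09 in degenerative pools and 5.20 to 7.54 in blastocyst pools, with PRM2, TNP2 and ODF1 at a single value. Of the PCR reference genes of the study, GAPDH differed by 0.45 (SE 0.16, limma adjusted p 0.566) and ACTB by -0.17. The RPLP0 probe sets differed by 0.17 (the brightest), 0.09 and 0.07. The study described GAPDH as largely invariable on its arrays and assessed its stability with ACTB and RPLP0. Over all 13 lists, limma and SAM called 0 of 136 probe sets, and 15 had an unadjusted p under 0.05 (8.61% of all probe sets did).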
